A study of Homo sapiens with 42 samples.

Results

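The 40 genes described here are interferon-stimulated genes, a fixed list of genes that cells switch on when interferon reaches them, and all 40 were found by symbol in each of 5 expression tables, where the table of SEM names 57793 genes. The 42 RNA libraries came from 5 human lines of acute lymphoblastic leukaemia of the B lineage (B-ALL). In these lines NSD2, a methyltransferase that marks histone H3 in gene bodies, had been overexpressed or targeted by hairpins. Reh and 697 cells held an empty vector (EV), or overexpressed wild-type NSD2 (WT) or the E1099K mutant (EK). Each arm had 2 replicates in Reh and 3 in 697. RS411 (the line RS4;11), RCH (RCH-ACV) and SEM cells held a non-targeting short hairpin RNA (NT) or hairpin sh2 or sh5, with 3 replicates per arm. The design text names sh2 as the NSD2 knockdown, whereas sh5 stands only in the sample titles. The labels give neither the promoter that drives NSD2 nor whether an arm is a clone, and no sample was labelled as treated with interferon. The labels do not state separate cultures for the replicates, and every p-value therefore reflects only how far these samples scatter, possibly for technical reasons. The question asked of each line was whether the members differed between the arms with altered NSD2 and the control arm.

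Type I interferons bind the receptor made of IFNAR1 and IFNAR2, which activates the kinases JAK1 and TYK2. The signal leads STAT2 and IRF9, both members of the list, to the interferon-stimulated response element (ISRE) of target genes. Interferon gamma has a receptor of its own and is the stronger inducer of the guanylate-binding proteins. The products detect viral RNA, block viral entry, translation and replication, and feed back on the pathway itself.

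Promoters are shown first because the ISRE is the element this pathway acts on. RefSeq promoter windows (GRCh38.p14, 250 bases before to 50 bases after each transcript start) were found for 31 of the 40 members. The motif searched, the core of the ISRE, is GAAA, any 2 bases and GAAA again. It was looked for on both strands, and overlapping matches were counted separately. It stood in at least 1 window of 22 of the 31 members (71.0%) and of 1195 of 27305 genes (4.38%). The 9 windows below belong to members with different outcomes: IFI44 and EPSTI1 were higher with sh2 in RCH, ISG15, BST2, IFITM3 and IFIT1 were higher with a hairpin in SEM, and IFITM1, OAS3 and HERC5 were lower there. Each is cut to the stretch around its matches before the start, on the strand of the gene, and capitals mark the motif, which reads TTTC first where it lies on the opposite strand. A second match of OAS3 and of IFITM1, nearer the start, lies outside the printed stretch.
IFI44, chr1:78649746-78649805, plus strand: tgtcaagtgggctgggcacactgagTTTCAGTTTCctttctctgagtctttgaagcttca
EPSTI1, chr13:42992257-42992316, minus strand: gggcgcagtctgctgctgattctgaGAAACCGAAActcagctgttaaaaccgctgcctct
ISG15, chr1:1013359-1013424, plus strand: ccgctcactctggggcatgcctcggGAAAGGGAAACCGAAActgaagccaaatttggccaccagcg
BST2, chr19:17405720-17405785, minus strand: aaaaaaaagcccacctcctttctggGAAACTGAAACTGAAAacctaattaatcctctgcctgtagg
IFITM3, chr11:320861-320937, minus strand: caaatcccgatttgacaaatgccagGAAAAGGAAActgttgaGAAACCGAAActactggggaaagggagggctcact
IFIT1, chr10:89392482-89392554, plus strand: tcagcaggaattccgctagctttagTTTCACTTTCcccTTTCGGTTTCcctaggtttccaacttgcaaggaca
IFITM1, chr11:313975-314033, plus strand: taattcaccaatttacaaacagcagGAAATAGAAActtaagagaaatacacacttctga
OAS3, chr12:112938306-112938365, plus strand: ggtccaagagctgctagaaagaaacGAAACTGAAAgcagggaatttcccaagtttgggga
HERC5, chr4:88456969-88457079, plus strand: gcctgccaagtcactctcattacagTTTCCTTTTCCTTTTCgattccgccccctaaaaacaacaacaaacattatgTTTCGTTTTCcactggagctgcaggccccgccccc
The windows shown were picked among members with the motif, higher and lower, and give no comparison of these outcomes. In ISG15 and BST2 the matches began 113 and 107, and 130 and 124, bases before the start, and each pair overlapped. A match describes letters in the sequence and shows no binding. OAS1, XAF1, IFI35, CMPK2, STAT2, IRF9, DDX58, HERC6 and SAMD9L had this motif in none of their windows.

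Each library held between 21876505 and 67651596 counted reads. NSD2 itself was higher in every WT and EK library than in every EV library of Reh (fold 2.92 and 2.91) and of 697 (fold 9.56 and 8.80), with adjusted p from 2.61e-05 to 0.0168. In SEM it fell to a fold of 0.503 with sh2 and 0.413 with sh5 (adjusted p = 8.93e-09 and 1.87e-09). NSD2 was lower in every hairpin library than in every NT library of RS411 (fold 0.613 and 0.563) and RCH (fold 0.585 and 0.573), but the adjusted p-values there ran from 0.0952 to 0.508. Of 14 B-lymphoid marker genes, 13 or 14 averaged at least 1 CPM (a gene's reads relative to all counted reads of its library) in the control arm of each line. Reh held no read of VPREB1.

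Without any labelled stimulus the control arms already held RNA of most members. A level of at least 1 CPM was reached by 35 members in Reh EV, 34 in 697 EV, 35 in RS411 NT, 34 in RCH NT and 36 in SEM NT, and by 31 in all 5 lines. IFI27, IFI44L and OASL were under 1 CPM in all 5. For 21 of the 40 members the highest control level among the lines was that of Reh. The median member level was 21.1 CPM in Reh, against 7.10 to 12.9 CPM in the other lines. The lines were scaled separately, so levels set across lines are descriptions. CPM are not divided by length and were not compared between genes.

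MX1, a dynamin-like GTPase that blocks influenza virus, and GBP2, a guanylate-binding GTPase, had the widest ranges between lines. The control level of MX1 was 45.2 ± 12 CPM in RCH and 32.5 ± 5.49 in Reh, 3.57 ± 1.33 in RS411, 3.16 ± 0.385 in SEM and 0.345 ± 0.111 in 697 (mean ± SD, n = 3, n = 2 in Reh). RCH and Reh did not differ beyond their spread, nor did RS411 and SEM. GBP2 was highest in SEM at 12 ± 0.747 CPM and lowest in Reh at 0.0928 ± 0.0280 CPM. No line held the highest level of all antiviral effectors. IFITM3, which hinders viral fusion in endosomes, ran from 0.584 ± 0.193 CPM in RS411 to 14.2 ± 3.25 in RCH. OAS2, which makes the oligoadenylates that activate RNase L, was 83.7 ± 12.9 CPM in RS411 and 7.38 ± 2.31 in RCH. CMPK2 and RSAD2, neighbouring genes whose products make and use an antiviral nucleotide, were both highest in Reh, at 66.5 ± 3.74 and 20.3 ± 2.11 CPM. In the other lines they reached at most 13.7 ± 2.18 and 3.60 ± 1.11 CPM. Both enzymes thus stood several fold above the rest in Reh, beyond the spread of any line. HERC5, the ligase that attaches ISG15 to proteins, was 120.1 ± 0.492 CPM in Reh, 93.0 ± 18.1 in 697 and 11.9 ± 1.43 in RS411. DDX58 (RIG-I, a sensor of viral RNA) and DTX3L, a ubiquitin ligase, were the most even, with the highest line at 1.49 and 1.60 times the lowest.

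**Figure D1:**
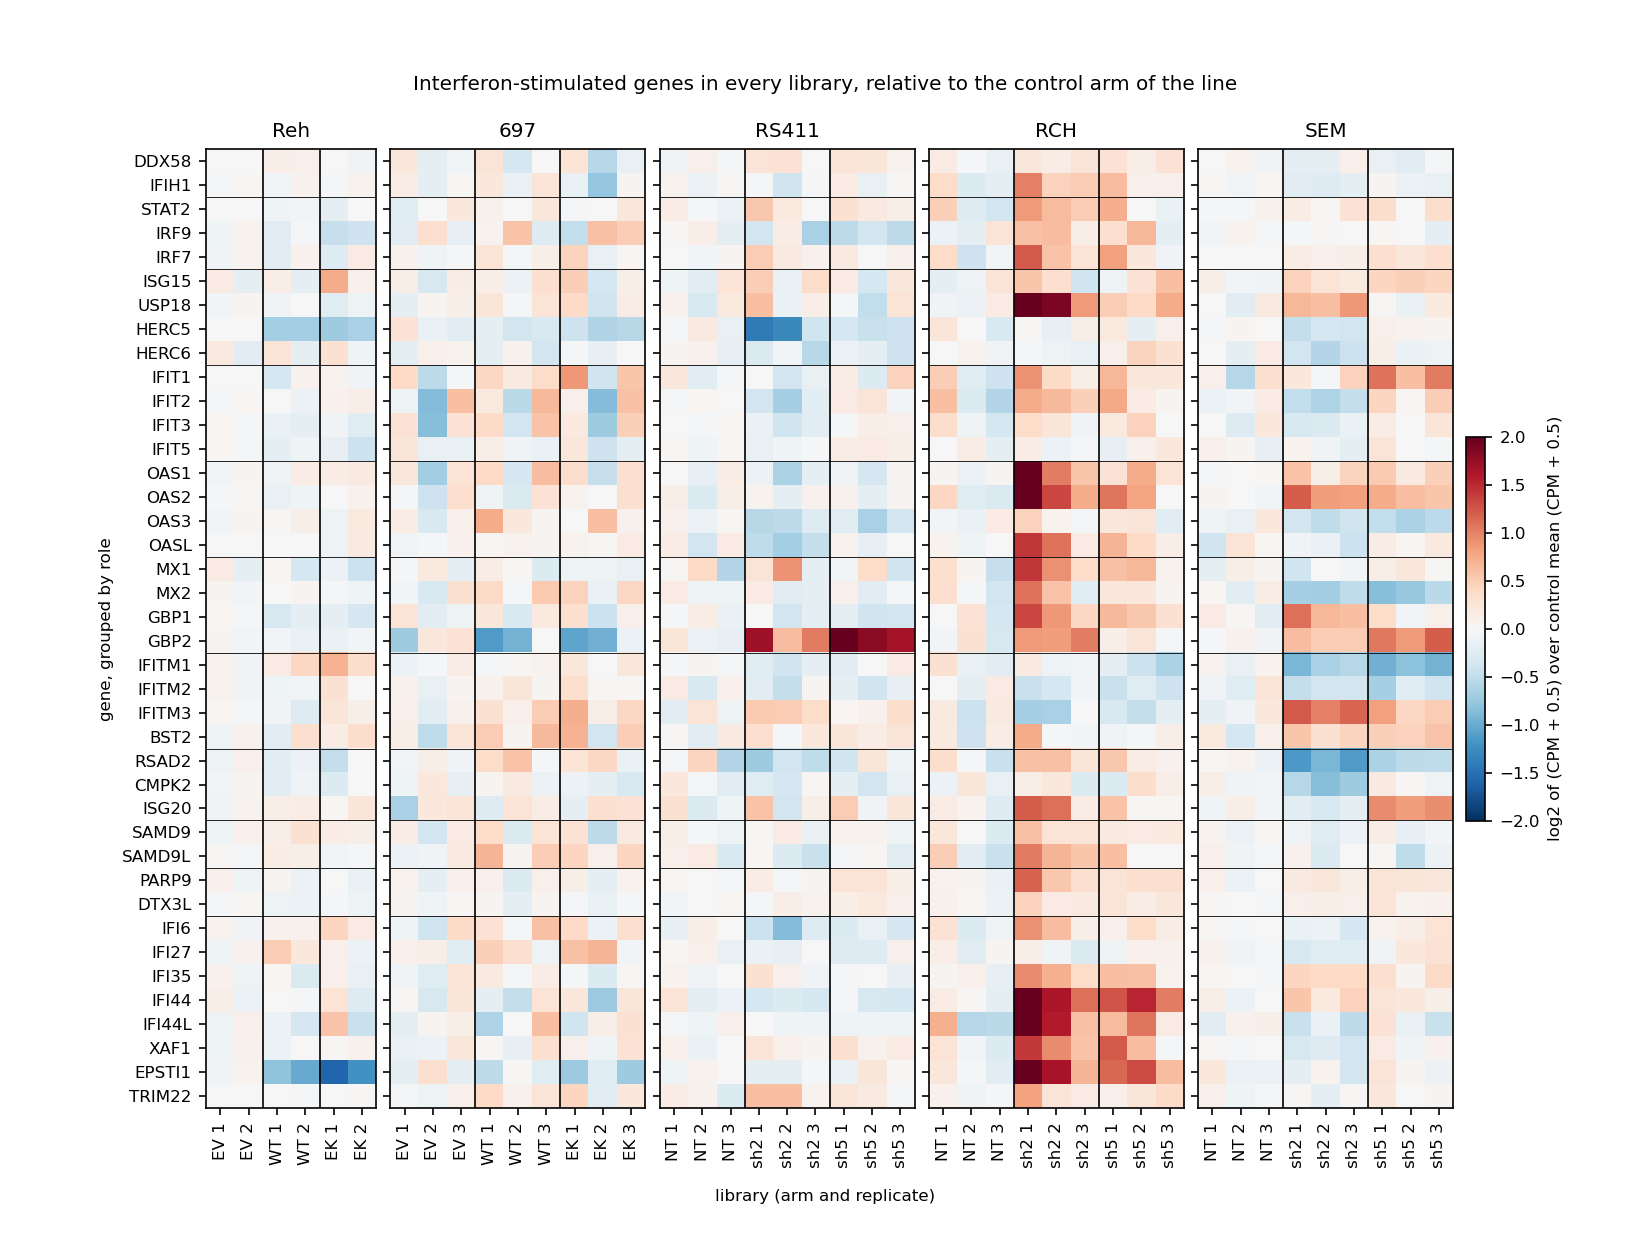
Level of each of the 40 members (rows, in the order of their roles, thin lines between roles) in each library (columns) as the log2 ratio of CPM + 0.5 to the mean of the control arm of the line, EV or NT, with colours capped at -2 and 2. The RCH sh2 columns are mostly red, the SEM columns mix red and blue, and GBP2 in RS411 and EPSTI1 and HERC5 in Reh stand out as rows.

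Interferon RNA was at or near 0 in these libraries. Of 19 interferon ligand genes none passed the filter on low counts in any line, and 0 to 10 reads were counted over all 19 in a library, the most in 697. The receptor chains, kinases and STATs were present, and all 11 passed the filter in every line. IFNAR1 averaged 33.0 to 99.6 CPM, IFNAR2 11.9 to 21.0 and JAK1 151 to 219.8 CPM in the control arms. Among the members, STAT2 averaged 39.1 to 92.0 CPM and IRF9 0.902 to 1.54 CPM. The IRF9 level is uncertain, because 48.4% of its exonic bases lie in another gene on the same strand in GENCODE and the counting could split such reads.

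In Reh and 697, raised NSD2 was accompanied by no called member in the main test (an adjusted p under 0.05 over all genes counts as a call). The filter on low counts left out GBP2 and OASL in Reh and OASL in 697. In Reh, 0 of 38 tested members were called in WT versus EV by edgeR, beside 0.219% of all genes, and 0 of 38 in EK versus EV, beside 0.213%. At an unadjusted p under 0.05 these were 2 and 3 members, beside 793 and 982 of 15972 genes, and DESeq2 called 1 and 2 members. In Reh WT 7 members lay wholly above EV and 12 wholly below, where 15.4% and 14.9% of all genes did, and in Reh EK 7 and 8, where 14.2% and 13.7% did. In 697, limma called 0 of 39 in WT versus EV, beside 0.190% of all genes, and 0 of 39 in EK versus EV, beside 0.172%. Unadjusted p-values under 0.05 were reached by 1 and 2 members, beside 468 and 796 of 16310 genes. On recovered reads edgeR called 0 and 0 members. In 697 WT 0 members lay wholly above EV and 0 wholly below, where 3.68% and 3.19% of all genes did. The median log2 fold change of the tested members was -0.05 and -0.01 in Reh WT and EK, and 0.12 and 0.07 in 697 WT and EK, where all genes had -0.01, 0.01, 0.00 and -0.02. EK versus WT called 0 members and 0% of all genes in both lines, with 0 members at an unadjusted p under 0.05, and 0 by DESeq2 in Reh and by edgeR in 697.

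The 2 members with the smallest p in Reh EK were HERC5 and EPSTI1, the latter an interferon-induced gene named for epithelial-stromal interaction. HERC5 was 119.8 and 120.5 CPM in EV, 74.6 and 74.8 in WT and 73.3 and 76.4 in EK. Every WT and EK library lay below both EV libraries. The log2 fold change was -0.69 ± 0.10 (adjusted p = 0.0800) for WT and -0.68 ± 0.10 (adjusted p = 0.0736) for EK. DESeq2 called both, at an adjusted p of 8.55e-06 and 7.01e-06. So did edgeR with the replicate number as a block (adjusted p = 2.35e-05 and 2.13e-05). EPSTI1 was 3.34 and 3.72 CPM in EV, 1.81 and 1.51 in WT and 0.845 and 1.24 in EK. The arms did not overlap, and EK lay below WT. Its log2 fold change was -1.09 ± 0.27 (adjusted p = 0.414) for WT and -1.75 ± 0.28 (adjusted p = 0.109) for EK, which DESeq2 called at an adjusted p of 0.00492. With the block edgeR called EPSTI1 in WT and in EK (adjusted p = 0.0112 and 0.000273). IFITM1, the third in Reh EK, had a log2 fold change of 0.57 ± 0.21 (adjusted p = 0.647), and GBP1, the third in Reh WT, -0.25 ± 0.12 (adjusted p = 1).

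HERC5 and EPSTI1 also had the smallest p-values of the members in 697 EK, in authors' normalized counts. HERC5 was 5543, 4070.3 and 3801 in EV, 3905, 3437 and 3571 in WT and 3389, 2887 and 3001 in EK. The EK libraries lay below all EV libraries, with a log2 fold change of -0.52 ± 0.15 (adjusted p = 0.617). Replicate numbers pair the 697 samples, and with the replicate as a block HERC5 was called in 697 EK, at -0.52 ± 0.09 (adjusted p = 0.0261). EPSTI1 was 27.6, 48.2 and 26.2 in EV and 11.1, 24.7 and 11.4 in EK, without overlap, at -1.10 ± 0.42 (adjusted p = 0.933). HERC5 and EPSTI1 were the 2 of 39 members (5.13%) whose 697 EK libraries all lay below EV. That is near the share of all genes, 3.97%, and 0 members lay wholly above, where 4.38% of all genes did. IFITM3 followed at 0.44 ± 0.20 (adjusted p = 0.986). In 697 WT the smallest p-values were those of SAMD9L, HERC5 and GBP2, with log2 fold changes of 0.43 ± 0.19 (adjusted p = 1), -0.28 ± 0.15 (adjusted p = 1) and -0.86 ± 0.50 (adjusted p = 1).

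**Figure D2:**
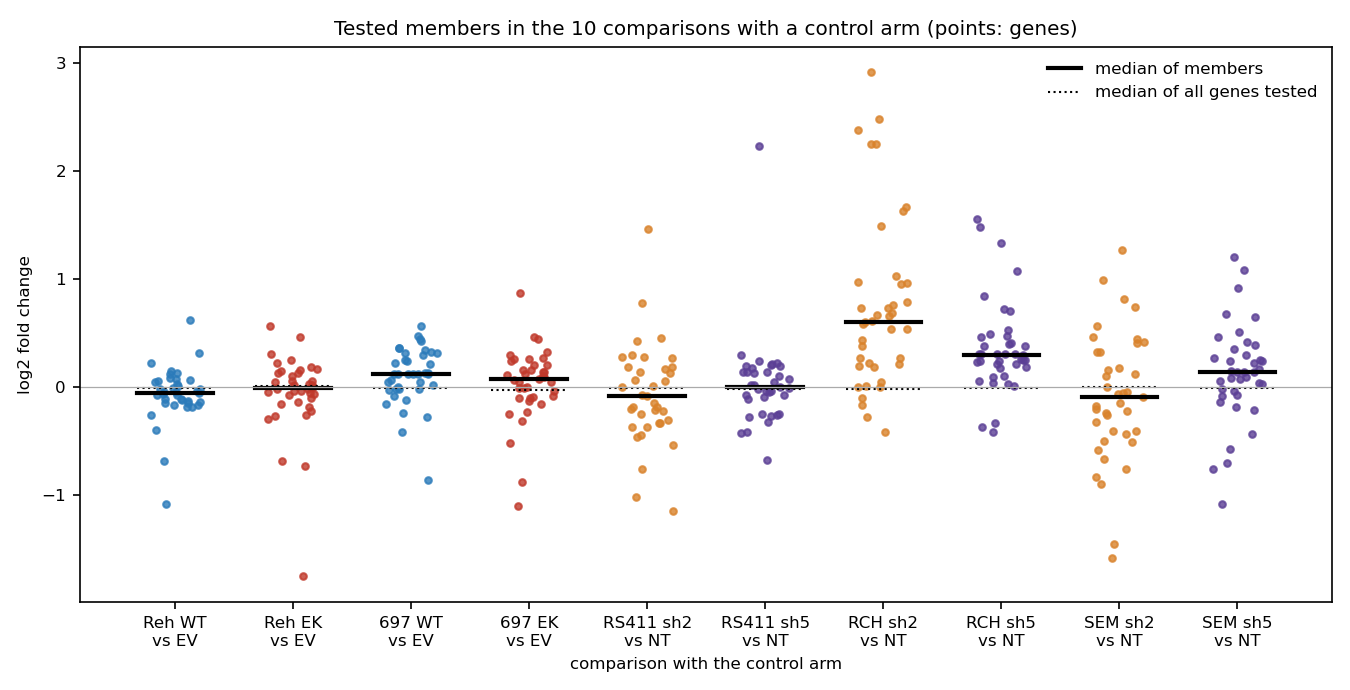
Log2 fold change of each tested member (points) in the 10 comparisons with a control arm, with the median of the members (thick bar) and of all genes tested (dotted bar). The member median is 0.61 in RCH sh2 and 0.30 in RCH sh5, and lies between -0.09 and 0.14 in the other 8 comparisons.

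In RS411, GBP2 was the 1 member called with either hairpin, of 37 tested (EPSTI1, IFI27 and IFI44L had too few reads). In sh2 versus NT 1.67% of all genes were called, 0.944% higher, and in sh5 versus NT 0.478%, 0.460% higher. With sh2 3 members lay wholly above NT and 8 wholly below, where 10.9% and 10.6% of all genes did, and with sh5 4 and 4, where 10.6% and 9.01% did. GBP2 was 1.71, 1.22 and 1.17 CPM in NT, 5.54, 2.37 and 3.33 with sh2 and 8.04, 6.03 and 5.41 with sh5. Every hairpin library lay above every NT library, and the lowest sh5 library lay below the highest sh2 library. The gene rose by a log2 fold change of 1.46 ± 0.31 (adjusted p = 0.0385) with sh2 and 2.23 ± 0.31 (adjusted p = 0.0131) with sh5. Both calls depended on which libraries were fitted. Without any 1 NT library or without sh2 replicate 1 the sh2 value was 1.06 to 1.67 (adjusted p from 0.108 to 0.163). Without any 1 NT library or sh5 replicate 1 the sh5 value was 2.06 to 2.44 (adjusted p from 0.0527 to 0.0856). The sh2 call also ended with a filter at a mean of 1 CPM (adjusted p = 0.0561) and with the 2 arms fitted alone (adjusted p = 0.0825). Its neighbour GBP1 was 21.4, 24.5 and 20.1 CPM in NT, 21.8, 16.9 and 19.1 with sh2 and 19.5, 16.5 and 17.0 with sh5, and its arms overlapped or lay below NT. In GENCODE 9.89% of the exonic bases of GBP2 lie in GBP7 on the same strand.

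Replicate numbers also pair the RS411 samples, and the block raised the count in sh2 versus NT from 1 to 9. With it, OAS1, OAS3, OASL, IFIT2 and IFI6 were called lower and GBP2, TRIM22, STAT2 and IRF7 higher. Without sh2 replicate 3 the unblocked count was 6. Shares of all genes called with the block or without a library are not given here. Such counts are therefore not read as particular to the members. IFI6, a mitochondrial antiviral protein, was 6.02, 7.59 and 6.92 CPM in NT and 4.93, 3.51 and 5.65 with sh2. OAS3 was 21.8, 18.8 and 20.7 CPM in NT, 13.7, 14.0 and 17.0 with sh2 and 17.6, 12.9 and 15.5 with sh5, below NT in every hairpin library. TRIM22, a restriction factor of retroviruses, was 75.9, 73.3 and 56.7 CPM in NT and 105, 105 and 72.3 with sh2, and the arms overlapped. In sh5 versus NT the block called OAS3 (lower) beside GBP2. In sh2 versus sh5 edgeR called 0 of 37 members, beside 0.577% of all genes, and 3 members without sh2 replicate 3. At an unadjusted p under 0.05 there were 6, beside 2196 of 17165 genes, and DESeq2 called 1, IFIT2. With the block 5 were called there: IFIT2, IFIT5, OASL and GBP2 lower in sh2 and TRIM22 higher. NSD2 in the 3 sh2 libraries was 155, 157 and 254 CPM, and replicate 3 had the most. The summed level of 10 erythroid and megakaryocytic markers was 30.7 to 33.9 CPM in NT, 10.7 to 16.4 with sh2 and 31.9 to 38.0 with sh5, and its part in the sh2 values was not tested. Of these 10 markers 6 had no read in NT, 2 with sh2 and 6 with sh5, and PF4 had none in any of the 3 arms. Fewer cells of a kind and less RNA per cell cannot be told apart in such bulk samples.

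RCH was the line in which the members were most often higher with sh2. Of 40 tested members 36 had a log2 fold change above 0, where 48.2% of all genes did, and the median was 0.61 against -0.02 for all genes. For 18 of 40 members every sh2 library lay above every NT library, where 13.0% of all genes did so, and 0 lay wholly below, where 13.3% of all genes did. edgeR called 3 of 40 members, IFI44, USP18 and EPSTI1, all higher, beside 1.37% of all genes in either direction and 1.17% higher. An unadjusted p under 0.05 was reached by 21 members, beside 3273 of 17468 genes. DESeq2 called 14 members, all higher, and its share of all genes is not given here.

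IFI44, an interferon-induced cytoplasmic protein, was 1.59, 1.41 and 1.17 CPM in NT, 11.0, 5.38 and 3.57 with sh2 and 4.04, 4.95 and 3.34 with sh5. The 3 NT libraries lay close together and all 6 hairpin libraries lay above them. It rose by a log2 fold change of 2.25 ± 0.39 (adjusted p = 0.0237) with sh2. USP18, the protease that removes ISG15 and dampens the interferon receptor, was 0.611, 0.572 and 0.811 CPM in NT, 5.94, 3.79 and 1.60 with sh2 and 1.13, 1.04 and 1.45 with sh5. It rose with sh2 by 2.48 ± 0.44 (adjusted p = 0.0261). EPSTI1 was 0.953, 0.707 and 0.559 CPM in NT, 5.70, 3.40 and 1.49 with sh2 and 2.26, 2.57 and 1.39 with sh5, and rose with sh2 by 2.25 ± 0.47 (adjusted p = 0.0456). In all 3 genes the sh2 libraries spread widely, and the arms still did not overlap.

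These calls rested on few libraries. Without NT replicate 2, NT replicate 3 or sh2 replicate 2 none of the 3 was called (adjusted p from 0.0637 to 0.210). Without sh2 replicate 1 only IFI44 was, at a log2 fold change of 1.70 (adjusted p = 0.0422), and without NT replicate 1 EPSTI1 was not (adjusted p = 0.0507). Without sh2 replicate 3 the count was 11, all higher, and the share of all genes in that fit is not given here. EPSTI1 also lost its call with a filter at a mean of 1 CPM (adjusted p = 0.0542) and with the 2 arms alone (adjusted p = 0.0516). The member median stayed between 0.45 and 0.78 when any 1 library was left out.

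The sh2 library with the least NSD2, 142 CPM, had the highest level of 33 of the 40 members in its arm, and the others had 205 and 251 CPM. This library, replicate 1, also had the fewest reads of RCH, 21876505. The share of all genes highest in it is not given here, and a link to NSD2 was not tested. The same replicate number was highest for 28 of 40 members in NT, where NSD2 was 327, 344 and 352 CPM, and for 18 of 40 with sh5. OAS1, a sensor of double-stranded RNA like OAS2, was 3.89, 3.40 and 3.86 CPM in NT, 17.8, 8.11 and 5.71 with sh2 and 4.62, 6.56 and 4.58 with sh5. OAS2 was 10.0, 6.13 and 5.97 CPM in NT, 36.8, 19.4 and 12.7 with sh2 and 16, 13.1 and 7.46 with sh5. Both were above NT in all sh2 libraries, and neither was called by edgeR. MX1 was 56.3, 46.8 and 32.6 CPM in NT, 123, 85.9 and 58.3 with sh2 and 68.4, 71.7 and 47.6 with sh5. XAF1, a pro-apoptotic interferon target, was 25.7, 20.3 and 17.4 CPM in NT, 56.8, 41.3 and 31.6 with sh2 and 50.01, 32.6 and 20.9 with sh5. GBP2 was 0.342, 0.572 and 0.198 CPM in NT, 1.08, 1.06 and 1.27 with sh2 and 0.452, 0.537 and 0.348 with sh5, so that in RCH it was higher with sh2 and overlapped NT with sh5.

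PARP9, which pairs with DTX3L to modify histones and host proteins, was 31.8, 31.2 and 27.3 CPM in NT and 69.0, 43.8 and 37.9 with sh2. Its sh2 libraries all lay above NT, without a call. IFITM3 was 16.1, 10.5 and 16.1 CPM in NT, 8.79, 8.89 and 14.4 with sh2 and 11.4, 10.1 and 12.4 with sh5. IFITM2 was 49.5, 42.8 and 55.6 CPM in NT, 36.3, 38.6 and 47.5 with sh2 and 35.9, 41.7 and 36.9 with sh5. Neither gene had an sh2 library above all NT libraries. The median log2 fold change of the 4 membrane proteins with sh2 was -0.13, that of the 4 OAS genes 1.57, of the 4 GTPases 0.97, of the 4 IFIT genes 0.37 and of the 3 transcription factors 0.67. In the other roles it ran from 0.11 for the ISG15 system to 0.88 for the IFI-named and other induced genes. The OAS genes were uneven: OAS3 reached at most 0.37 in any comparison with a control arm, and OASL stood at 0.139 CPM in RCH NT. HERC5 was 65.7, 55.4 and 44.6 CPM in NT and 56.3, 49.4 and 60.2 with sh2, and the arms overlapped.

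With sh5, edgeR called 0 of 40 members in RCH, beside 0.0229% of all genes, and 0 with the replicate block. At an unadjusted p under 0.05 there were 5, beside 706 of 17468 genes, and DESeq2 called 1, IFI44. The median was 0.30, against 0.00 for all genes, and 37 of 40 members were above 0, where 48.8% of all genes were. For 10 of 40 every sh5 library lay above every NT library, where 3.97% of all genes did, and for 1 every library lay below, where 5.14% did. The smallest p-values were those of IFI44 at 1.56 ± 0.39 (adjusted p = 0.448), EPSTI1 at 1.49 ± 0.46 (adjusted p = 0.802) and IFITM2 at -0.37 ± 0.15 (adjusted p = 1). Both hairpin arms share the NT libraries. In sh2 versus sh5 0 of 40 members and 0% of all genes were called, and DESeq2 called 1 member, USP18. An unadjusted p under 0.05 was reached there by 7 members, beside 1714 of 17468 genes. USP18 had a log2 fold change of 1.63 ± 0.42 (adjusted p = 0.286) there, GBP2 1.36 ± 0.40 (adjusted p = 0.365) and OAS1 1.00 ± 0.36 (adjusted p = 0.481).

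Other gene lists gave few calls in the RCH sh2 arm. Of the other interferon regulatory factors, 2 of 6 tested rose, beside 1.17% of all genes, IRF2 from 29.5 ± 0.468 to 44.6 ± 1.94 CPM (SD, n = 3) and IRF5 from 4.06 ± 1.19 to 12.1 ± 1.27 CPM, at log2 fold changes of 0.60 ± 0.12 (adjusted p = 0.0432) and 1.57 ± 0.33 (adjusted p = 0.0472). Of 58 tested genes in a longer list of interferon-stimulated genes outside the 40, 0 were called in RCH sh2 by edgeR, with a median of 0.20, and of 11 receptors, kinases and STATs 0 were called, with a median of 0.35. Of 12 tested NF-kappa-B response genes 1 was called, BIRC3, an inhibitor of apoptosis, higher at 2.13 ± 0.40 (adjusted p = 0.0370). The summed level of the 18 listed NF-kappa-B genes was 696 to 729 CPM in NT and 874 to 1009 CPM with sh2. Stromal and epithelial markers summed to 3.77 to 7.65 CPM in NT and 10.1 to 30.1 CPM with sh2, T and NK cell markers to 8.68 to 13.1 and 13.2 to 17.6 CPM, and B-lymphoid markers to 5721 to 8265 and 7639.8 to 9033 CPM. Myeloid and dendritic markers summed to 21.3 to 26.8 CPM in NT and 12.8 to 19 CPM with sh2. The 4 tested T and NK cell markers had a median log2 fold change of 2.84 with sh2, while CD2, CD3D and CD3E had no read in any RCH library. The part of these lists in the member values was not tested.

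**Figure D3:**
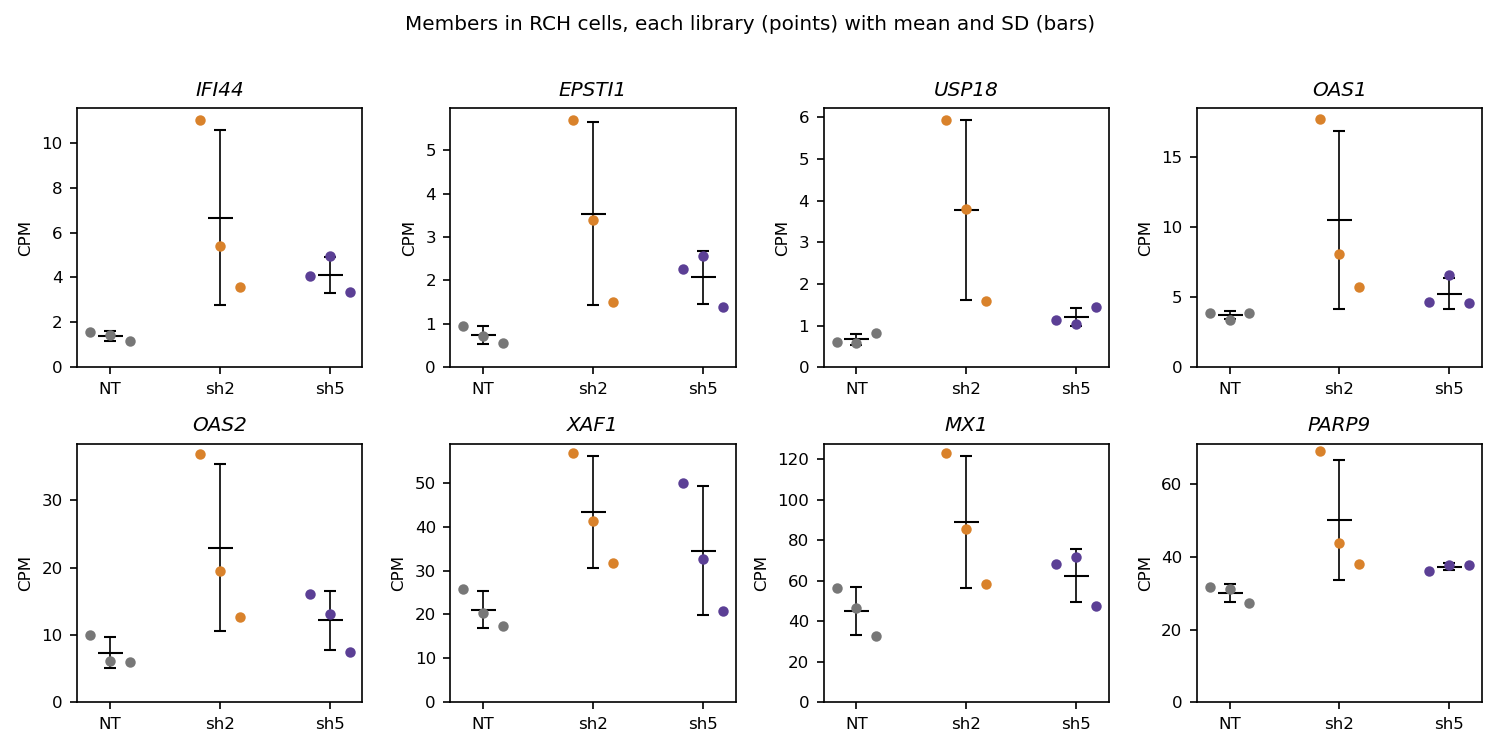
CPM of 8 members in RCH cells in each library (points) of the arms NT, sh2 and sh5, with the arm mean (horizontal tick) and SD (bars, n = 3), axes from 0. The sh2 points of IFI44, EPSTI1, USP18, OAS1, OAS2, XAF1, MX1 and PARP9 all lie above the NT points, from 3.57 to 11.0 CPM in IFI44.

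In SEM, more members were called than in any other line, in both directions. With sh2, edgeR called 20 of 39 tested members, 10 higher and 10 lower, beside 27.9% of all genes, 13.5% higher and 14.4% lower. With sh5 it called 14 of 39, 10 higher and 4 lower, beside 21.3%, 11.1% and 10.2%. The median log2 fold change of the tested members was -0.09 with sh2 and 0.14 with sh5, where all genes had 0.01 and -0.01. With sh2 13 members lay wholly above NT and 14 wholly below, beside 19.3% and 20.1% of all genes, and with sh5 15 and 5, beside 18.3% and 17.3%. Leaving out any 1 library left 15 to 21 members called with sh2 and 11 to 17 with sh5. Both hairpin comparisons share the NT libraries. Replicate numbers pair the SEM samples, and the block added the calls of IFIH1, IFIT3, STAT2, PARP9 and SAMD9 with sh2 and of IFI35, IFIT2, DTX3L, STAT2 and SAMD9L with sh5.

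Of the 3 transcription factors and the 2 RNA sensors, IRF7 alone was called in SEM in the main test, with sh5. The replicate block added STAT2 with both hairpins and IFIH1 with sh2. IRF7, which amplifies interferon production, was 32.9, 32.3 and 32.7 CPM in NT and 41.3, 38.1 and 41.2 with sh5, and rose by 0.30 ± 0.06 (adjusted p = 0.00267). The sensors DDX58 (RIG-I) and IFIH1 (MDA5) were not called in the main test with either hairpin. In the ISG15 system, ISG15 itself, a ubiquitin-like modifier, rose with both hairpins, from 9.60, 8.44 and 8.40 CPM in NT to 12.3, 10.8 and 10.1 with sh2 and 12, 12.5 and 12.1 with sh5. The sh5 change was 0.47 ± 0.10 (adjusted p = 0.00371). USP18 was 7.98, 6.80 and 9.04 CPM in NT, 12.8, 12.3 and 14.8 with sh2 and 8.06, 7.16 and 9.12 with sh5. It rose with sh2 alone of the 2 hairpins, by 0.75 ± 0.13 (adjusted p = 0.000359), and differed between the hairpins by 0.72 ± 0.13 (adjusted p = 0.00119). HERC5 was 35.7, 38.3 and 36.5 CPM in NT, 26.4, 28.8 and 28.4 with sh2 and 39.7, 38.6 and 38.4 with sh5. It fell with sh2, with a log2 fold change of -0.40 ± 0.06 (adjusted p = 0.000224), and its neighbour and relative HERC6 was called lower with sh2 as well.

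The oligoadenylate synthetases, 3 neighbouring genes, split in SEM. OAS2 rose with both hairpins, from 17.5, 16.9 and 16.1 CPM in NT to 39.5, 30.5 and 30.2 with sh2 and 28.6, 25.8 and 24.9 with sh5. The log2 fold changes were 0.99 ± 0.10 (adjusted p = 2.66e-06) and 0.65 ± 0.10 (adjusted p = 0.000284). OAS1 was called higher with both as well, at 10.5, 10.8 and 11.2 CPM in NT, 16.3, 11.8 and 14.8 with sh2 and 15.7, 12.3 and 15.2 with sh5. OAS3, which lies between them, fell with both: it was 17.3, 16.4 and 21.3 CPM in NT, 14.1, 12.8 and 13.8 with sh2 and 12.8, 11.6 and 12.6 with sh5, a change of -0.57 ± 0.10 (adjusted p = 0.000926) with sh5. No hairpin library of OAS3 reached the NT range, and none of OAS2 fell into it.

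The membrane proteins of the IFITM cluster split too. IFITM3 was 2.44, 2.66 and 3.33 CPM in NT, 7.26, 6.17 and 6.92 with sh2 and 5.35, 3.90 and 4.23 with sh5, and rose by 1.27 ± 0.16 (adjusted p = 2.10e-05) and 0.67 ± 0.16 (adjusted p = 0.00732). IFITM1, which acts at the cell surface, was 3.97, 3.36 and 3.97 CPM in NT, 1.76, 2.23 and 2.39 with sh2 and 1.69, 1.92 and 1.72 with sh5, and fell, with log2 fold changes of -0.83 ± 0.17 (adjusted p = 0.00153) and -1.08 ± 0.17 (adjusted p = 0.000279). Neither gene's hairpin libraries overlapped NT, in opposite directions. IFITM2, the neighbour of IFITM1, was 119, 105 and 149 CPM in NT, 89.3, 95.1 and 96.5 with sh2 and 77.9, 104 and 94.6 with sh5, and was not called. These 3 genes are near copies, 32.5% of the exonic bases of IFITM1 lie in an annotated IFITM2 model on the same strand, and 21.3% of those of IFITM3 face a gene on the other strand in GENCODE, so their counts are uncertain. BST2 (tetherin), which holds virus at the surface, was called higher with both hairpins, at 72.4, 49.3 and 68.2 CPM in NT, 93.3, 78.5 and 86.1 with sh2 and 88.6, 87.2 and 94.6 with sh5.

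Among the GTPases, GBP2 rose with both hairpins in SEM, from 11.8, 12.9 and 11.4 CPM in NT to 18.8, 17.3 and 17.4 with sh2 and 25.6, 22.2 and 28.7 with sh5. The log2 fold changes were 0.57 ± 0.10 (adjusted p = 0.000453) and 1.08 ± 0.10 (adjusted p = 1.50e-06), and the hairpins differed by -0.51 ± 0.10 (adjusted p = 0.00182), with more GBP2 in every sh5 library than in any sh2 library. GBP1 was called higher with sh2, at 44.9, 40.7 and 34.3 CPM in NT and 86.6, 63.9 and 60.9 with sh2, and was 51.7, 38.6 and 43.1 CPM with sh5. MX2, which blocks the nuclear entry of HIV, was 9.75, 8.09 and 10.5 CPM in NT, 5.75, 5.64 and 6.50 with sh2 and 5.03, 5.40 and 6.37 with sh5. It fell with both, with log2 fold changes of -0.66 ± 0.13 (adjusted p = 0.00134) and -0.75 ± 0.13 (adjusted p = 0.000705). MX1, the neighbour of MX2, was 2.73, 3.47 and 3.28 CPM in NT, 2.28, 3.17 and 3.02 with sh2 and 3.48, 3.77 and 3.20 with sh5, with overlap and no call.

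The antiviral enzymes of nucleotides and nucleic acids fell with sh2, 3 of 3. RSAD2 (viperin) was 2.41, 2.45 and 2.11 CPM in NT, 0.767, 1.00 and 0.787 with sh2 and 1.32, 1.47 and 1.48 with sh5. It had the lowest log2 fold change of the called members with sh2, -1.45 ± 0.20 (adjusted p = 4.92e-05). CMPK2 was 10.4, 9.14 and 9.28 CPM in NT and 6.29, 5.11 and 5.69 with sh2, a change of -0.75 ± 0.12 (adjusted p = 0.000186), and 10.9, 9.84 and 8.91 CPM with sh5, within or near the NT range. ISG20, an exonuclease that degrades viral RNA, was 22.1, 25.6 and 22.4 CPM in NT, 20.0, 18.8 and 20.5 with sh2 and 45.4, 42.1 and 45.2 with sh5. It was the 1 member called in opposite directions, lower with sh2 and higher with sh5 at 0.92 ± 0.08 (adjusted p = 6.45e-07). The difference between the hairpins was -1.16 ± 0.08 (adjusted p = 8.81e-08).

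Of the 4 IFIT proteins, which bind viral RNA caps and ends, and 7 tested other induced genes, IFIT2, IFI35, IFI44 and XAF1 were called with sh2 in SEM and IFIT1 with sh5. IFIT1 was 1.19, 0.564 and 1.49 CPM in NT, 1.33, 1.03 and 1.68 with sh2 and 2.87, 1.90 and 2.75 with sh5, and rose with sh5 by 1.21 ± 0.30 (adjusted p = 0.00876). IFIT2 was called lower with sh2, at 6.01, 6.26 and 7.42 CPM in NT, 4.50, 4.11 and 4.56 with sh2 and 9.01, 6.79 and 9.44 with sh5, and differed between the hairpins by -0.94 ± 0.14 (adjusted p = 0.000318). XAF1 was 52.4, 50.4 and 52.2 CPM in NT, 41.1, 43.0 and 39.7 with sh2 and 57.8, 49.2 and 54.6 with sh5, and fell with sh2, with a log2 fold change of -0.32 ± 0.07 (adjusted p = 0.00217). In GENCODE 38.3% of its exonic bases face a gene on the other strand. IFI35 and IFI44 were higher with sh2, and PARP9 was called higher with sh5. EPSTI1 was under the filter in SEM, at 0.0262 to 0.316 CPM over the 9 libraries.

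In the direct test of sh2 against sh5 in SEM, 13 of 39 members were called, beside 12.4% of all genes. IFITM3, GBP1, USP18 and OAS2 were higher in sh2, beside 4.33% of all genes, and CMPK2, ISG20, RSAD2, GBP2, IFI6, XAF1, IFIT2, HERC5 and HERC6 were lower, beside 8.02%. Leaving out any 1 library left 7 to 13, with 7 without sh5 replicate 2 and without sh5 replicate 3. Each of these 2 libraries ended the calls of GBP1, OAS2 and HERC6 besides RSAD2, IFITM3 and IFI6. The calls of RSAD2, IFITM3 and IFI6 ended without sh2 replicate 3, sh5 replicate 2 or sh5 replicate 3 (adjusted p from 0.0573 to 0.133). Those of RSAD2 and IFITM3 also ended without sh2 replicate 1 (adjusted p = 0.102 and 0.0605), and that of RSAD2 with no low-count filter (adjusted p = 0.0537). NSD2 was 132 to 146 CPM with sh5 and 166 to 179 CPM with sh2.

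**Figure D4:**
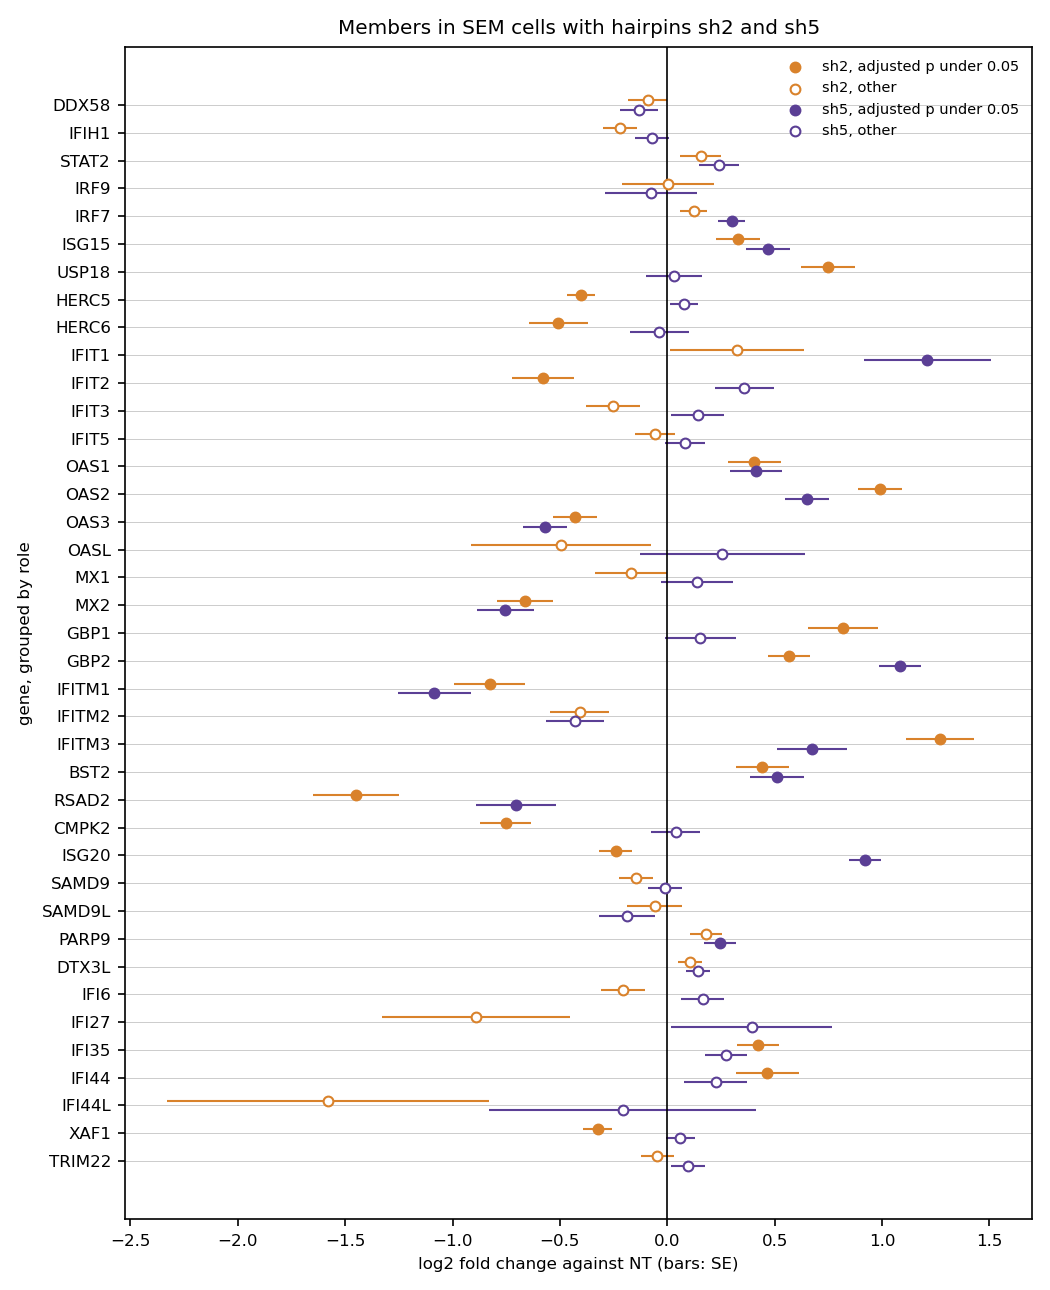
Log2 fold change against NT, with its SE as bars, of the 39 members tested in SEM cells for hairpins sh2 (orange) and sh5 (purple), filled where the adjusted p is under 0.05 and grouped by role. ISG20 lies on opposite sides of 0 for the 2 hairpins, and IFITM1, RSAD2, MX2 and OAS3 are filled on the left for both.

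The rest of the pathway was read in SEM against the shares of all genes, of which 13.5% rose and 14.4% fell with sh2 and 11.1% rose and 10.2% fell with sh5. Of 11 receptors, kinases and STATs, 8 rose with sh2 and 7 with sh5, where JAK1 fell. IFNLR1, the chain specific to interferon lambda, went from 2.52 ± 0.409 to 10.9 ± 1.01 CPM (SD, n = 3) with sh2, a change of 2.11 ± 0.19 (adjusted p = 9.44e-07). IFNAR2 went from 12.8 ± 1.10 to 22.4 ± 1.42 CPM with sh2 and 19.1 ± 0.653 with sh5. Of 6 tested interferon regulatory factors outside the 40, 3 rose and 1 fell with either hairpin: IRF8, which is induced by interferon gamma, went from 136 ± 3.59 to 274 ± 9.04 and 222 ± 4.62 CPM, and IRF4, a factor of late B cells, from 143 ± 11.8 to 63.7 ± 2.67 and 114 ± 3.81 CPM. In the list of 58 tested further interferon-stimulated genes, 20 rose and 6 fell with sh2, and 16 rose and 2 fell with sh5. The 3 of these with the smallest adjusted p were the same with both hairpins and serve antigen presentation on class I molecules. The peptide transporter TAP1 rose by 1.01 ± 0.06 (adjusted p = 5.48e-09) and 0.84 ± 0.06 (adjusted p = 1.21e-07), the class I regulator NLRC5 by 1.24 ± 0.07 (adjusted p = 8.93e-09) and 0.90 ± 0.07 (adjusted p = 6.69e-07), and the immunoproteasome subunit PSMB9 by 0.72 ± 0.07 (adjusted p = 1.17e-06) and 0.61 ± 0.07 (adjusted p = 1.22e-05). In RS411 sh2, 1 of 57 genes of this list was called, TAP1, beside 0.944% of all genes higher, at 0.39 ± 0.08 (adjusted p = 0.0379), and IRF8 rose by 0.89 ± 0.13 (adjusted p = 0.0161).

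Of 18 tested genes of nucleic acid sensing, 4 rose and 1 fell with sh2 and 5 rose and 1 fell with sh5 in SEM. With sh2 that is near the share of all genes called, 27.9%. The endosomal RNA sensor TLR7 rose, by 1.71 ± 0.22 (adjusted p = 2.70e-05) and 0.90 ± 0.23 (adjusted p = 0.00954), and TLR3 fell, with -1.69 ± 0.28 (adjusted p = 0.000380) and -1.20 ± 0.27 (adjusted p = 0.00526). Of 12 genes that limit sensing and signalling, 6 rose and 2 fell with sh2 and 3 rose and 1 fell with sh5. Lineage markers moved in SEM as well. The sum of 12 myeloid and dendritic markers was 14.8 to 22 CPM in NT, 35.3 to 51.1 with sh2 and 44.0 to 57.5 with sh5, and 3 of the 12 averaged at least 1 CPM in each arm, while CLEC4C, ELANE and FCGR3A had no read in any SEM library. B-lymphoid markers summed to 1637 to 1785 CPM in NT, 1386 to 1426 with sh2 and 1374 to 1457 with sh5. Their part in the member values was not tested.

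Across the knockdown lines the hairpin response of many members differed. In a joint fit with an interaction of line and arm, 14 of 40 members differed between RS411, RCH and SEM in sh2 versus NT, beside 8.37% of all genes, and 2 of 40 in sh5 versus NT, beside 2.17%. IFI44 had log2 fold changes of -0.37 ± 0.18, 2.25 ± 0.39 and 0.47 ± 0.15 with sh2 in RS411, RCH and SEM (adjusted p of the difference 0.00127). XAF1 had 0.14 ± 0.09, 1.03 ± 0.31 and -0.32 ± 0.07 (adjusted p = 0.00201). IFITM3 had 0.78 ± 0.29, -0.41 ± 0.24 and 1.27 ± 0.16 (adjusted p = 0.00941). The RCH value was the highest of the 3 for IFI44 and XAF1 and the lowest for IFITM3. The count of 14 rested partly on RCH: it was 6 without RCH NT replicate 2, 8 without RCH NT replicate 3, 9 without RCH sh2 replicate 1, SEM NT replicate 3 or SEM sh2 replicate 1, and 24 without RCH NT replicate 1. The count for sh5 was 1 without RS411 NT replicate 2, RS411 NT replicate 3 or RS411 sh5 replicate 1, and 4 without RCH NT replicate 1.

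Over the 10 comparisons with a control arm, 24 of the 40 members were called at least once without the block, beside 28.8% of the genes named in the SEM table and tested in any of them. The 16 others included MX1, IRF9 and DDX58, and also STAT2, IFIH1, SAMD9 and IFIT3, which the block called in SEM. GBP2 was called most often, higher in 4 comparisons, both hairpins in RS411 and SEM. In RCH it was higher with sh2 without a call, and in 697 EK and WT its levels were 36.4, 39.1 and 90.1 and 33.1, 41.0 and 99.2 normalized counts against 53.5, 122 and 127 in EV. These arms overlapped, although each of the 3 WT and 3 EK libraries lay below the EV library of its own number, and the block did not call GBP2. In Reh it was under the filter, at 0.0420 to 0.113 CPM. HERC5 lay wholly below the control libraries in 6 of 10 comparisons, Reh WT and EK, 697 EK, RS411 sh2 and sh5 and SEM sh2, that is in arms with more NSD2 and in arms with less, and wholly above NT with sh5 in SEM. In RS411 it was 11.5, 13.5 and 10.7 CPM in NT, 4.17, 4.55 and 8.91 with sh2 and 9.26, 8.56 and 8.78 with sh5, with a log2 fold change of -1.02 ± 0.25 (adjusted p = 0.0675) with sh2 that DESeq2 called (adjusted p = 0.00138). EPSTI1 lay wholly below EV in Reh WT, Reh EK and 697 EK and wholly above NT in RCH sh2 and sh5. It was under the filter in RS411 and SEM. Comparisons within a line share the control libraries. Of the 40 members HERC5 had the most comparisons wholly below the control. In its 6 comparisons, each taken alone, 3.97% to 20.1% of all genes lay wholly below. The share of all genes doing so in as many comparisons as HERC5 or EPSTI1 is not given here.

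**Figure D5:**
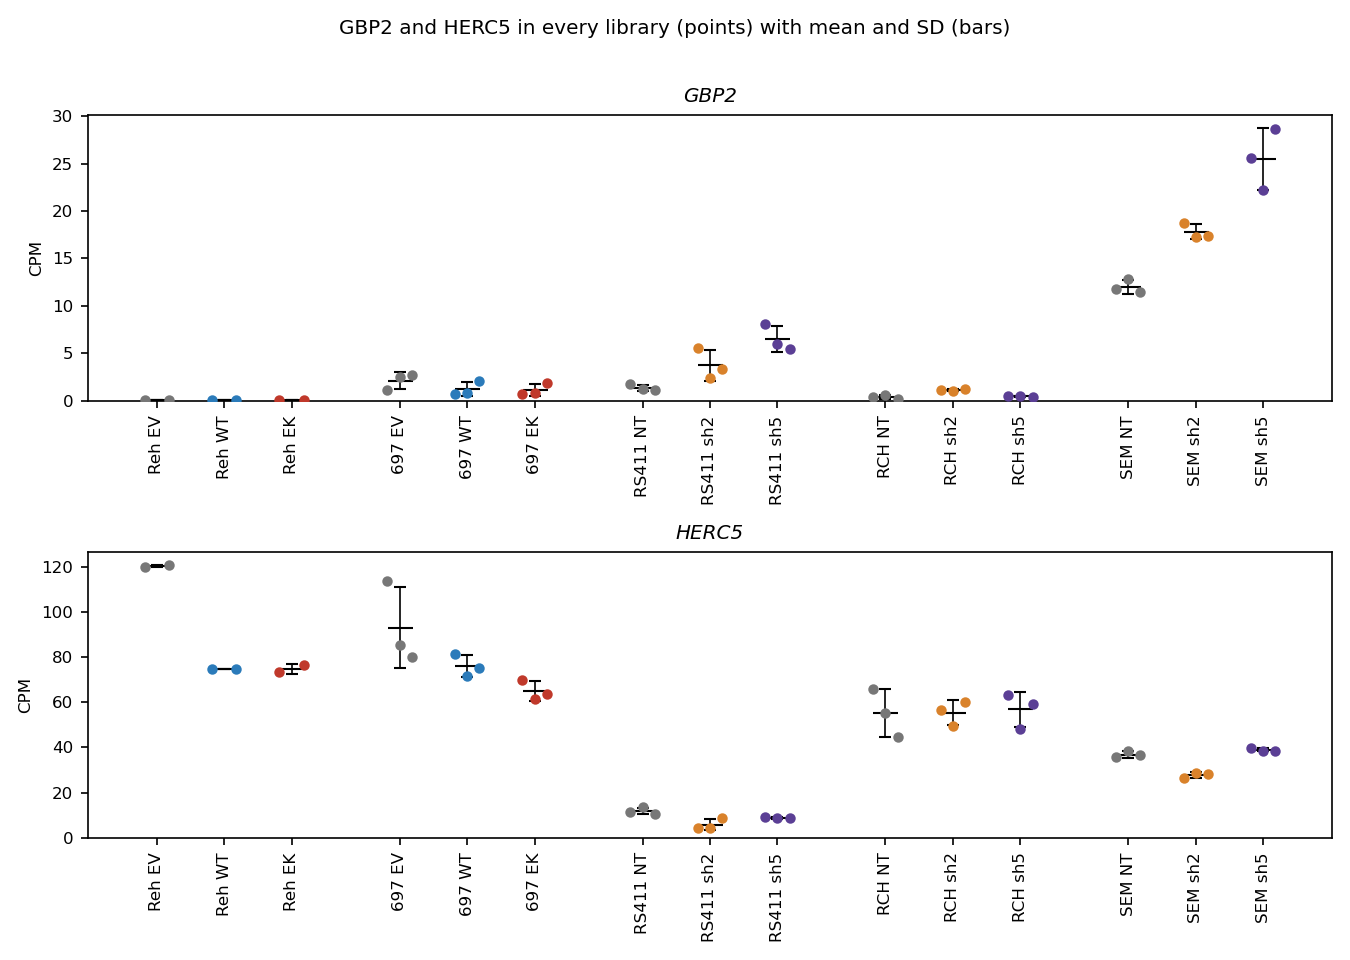
CPM of GBP2 (top) and HERC5 (bottom) in all 42 libraries (points), with arm mean (tick) and SD (bars, n = 2 in Reh and 3 elsewhere), axes from 0. GBP2 is above NT in every hairpin library of RS411 and SEM, and HERC5 is below EV in every WT and EK library of Reh.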

How the data were processed

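RNA had been sequenced from stranded total RNA libraries depleted of ribosomal RNA, per the labels' protocols. Trimmomatic, STAR and featureCounts on hg19 are named in the submitters' processing notes. Versions and strand setting were not given in the sources used here. The authors deposited raw counts per gene for Reh, RS411, RCH and SEM, and for 697 a normalized signal, gene counts divided by 1 factor per library. Whole reads could be recovered from it for 100% of values (tolerance 0.001 reads). Rows of the Reh counts were named through rows of the authors' normalized table with identical reads, which named all 40 members. In RS411, RCH and SEM 27 gene names had become dates (0.214%, 0.247% and 0.230% of reads) and were left out. In all, 6 columns matched no sample and were not used.

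Counts were fitted per line with edgeR 4.0.16 (TMM, filterByExpr, robust quasi-likelihood, all 3 arms together). For 697, limma 3.58.1 with a trend was fitted on log2(normalized count + 1) of genes with a mean of at least 10, so its fold changes understate those of low genes. The joint fit tested the interaction of line and arm. P-values were adjusted by Benjamini-Hochberg over all genes, and calls are at 0.05. Fold changes are log2 ± SE and levels are CPM on TMM-scaled library sizes. Depth was 23688482 to 27244031 reads in Reh, 40664735 to 57179806 in 697, 27767490 to 67651596 in RS411, 21876505 to 54879265 in RCH and 32508206 to 39468598 in SEM. The fits were also run on simulated counts. These had no pairing of samples and no changes in genes of low level, so that run does not cover either case.

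Same-numbered samples deviated together in 697 (correlations 0.50 to 0.79), RS411 (0.30 to 0.55) and SEM (0.17 to 0.52), and the numbers were taken to pair them. In RCH they did so for NT with sh5 (0.31 to 0.73), where the block changed no call, but not for NT with sh2 (lowest -0.01) or sh2 with sh5 (lowest 0.09). In Reh they deviated together too (0.67 to 0.72), but with 2 pairs only the numbers were not taken to pair the samples. Alternatives were DESeq2 1.42.0, RLE factors, no or another low-count filter, other pseudocounts, the compared arms alone, the replicate block and leaving out each library.

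The members and lists were chosen with earlier results of these data known. Test results are given for called members, up to 10 per comparison by adjusted p, or the 3 with the smallest p where none was called, and for up to 4 called genes per pathway list. Promoters are from RefSeq (GRCh38.p14), and no coordinates are given for the hg19 counts. Scripts ran in R 4.3.3 and Python 3.11.15.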

Additional observations from a re-analysis of the deposited data

Results flagged for a closer look

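These 16 values are the results in which the effect of a hairpin on a member differed between RS411, RCH and SEM by the interaction test of the joint edgeR fit, as adjusted p over all genes. With sh2 the difference was called for 14 members: IFI44 (0.00127), XAF1 (0.00201), IFITM3 (0.00941), RSAD2 (0.0102), OASL (0.0110), USP18 (0.0153), OAS1 (0.0184), EPSTI1 (0.0233), IFIH1 (0.0243), GBP1 (0.0276), IFI6 (0.0309), IFIT2 (0.0370), OAS3 (0.0412) and OAS2 (0.0469). With sh5 it was called for IFI44 (0.00285) and GBP2 (0.0266).

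RSAD2 with sh2 had log2 fold changes of -0.76 ± 0.33 in RS411, 0.54 ± 0.27 in RCH and -1.45 ± 0.20 in SEM. OASL, a relative of the OAS enzymes without their activity, had -1.15 ± 0.35, 2.38 ± 0.63 and -0.50 ± 0.42 in the same order, at levels under 1 CPM in all NT arms. OAS1 had -0.30 ± 0.15, 1.50 ± 0.37 and 0.41 ± 0.12. OAS1, OAS2, OAS3 and OASL all had their highest value in RCH. GBP1 had -0.19 ± 0.12, 0.95 ± 0.25 and 0.82 ± 0.16. GBP2 with sh5 had 2.23 ± 0.31, 0.31 ± 0.42 and 1.08 ± 0.10. IFI44 with sh5 had -0.25 ± 0.18, 1.56 ± 0.39 and 0.23 ± 0.15. The calls of IFI44 (both hairpins), XAF1, IFITM3, RSAD2 and OASL held when any 1 library was left out. That of USP18 ended without RCH NT replicate 2 (adjusted p = 0.0546) and that of OAS1 without RCH NT replicate 2 or 3 (0.0533 to 0.0602). The calls of EPSTI1, GBP1 and GBP2 ended without any of 3 or 4 libraries, and those of IFIH1, IFI6, IFIT2, OAS3 and OAS2 without any of 5 to 15, with adjusted p up to 0.135.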

How the results depend on the processing

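No checked fold change of a single member changed direction, and the sign of the member medians was not part of this check. Where a count moved, the cause was not tested unless fewer samples or genes entered the fit. DESeq2 called 1 member in Reh WT, 2 in Reh EK, 3 in RS411 sh2, 14 in RCH sh2, and 1 each in RCH sh5, RCH sh2 versus sh5 and RS411 sh2 versus sh5. With no low-count filter edgeR called 1 in Reh WT, 2 in Reh EK, 5 in RS411 sh2, 4 in RS411 sh2 versus sh5, 16 in RCH sh2, 3 in RCH sh5 and 3 in RCH sh2 versus sh5, and the line difference held for 22 members with sh2 and 6 with sh5. In RS411 sh2 a mean of at least 1 CPM, or the 2 compared arms alone, left 0.

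With the replicate block 1 member was called in 697 EK, also by edgeR on recovered reads with the block (chosen after seeing the data), 9 in RS411 sh2, 2 in RS411 sh5 and 5 in RS411 sh2 versus sh5. Numbers did not pair RCH NT with sh2, and with 2 pairs only those of Reh were not taken to pair its samples. There the block gave 19 in RCH sh2, 2 in Reh WT and 3 in Reh EK. In the joint fit it gave 27 members with sh2 and 10 with sh5. The counts of this section have no share of all genes under the same setting beside them. They are therefore not read as particular to the members.

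Leaving out 1 library at a time gave 0 to 6 members in RS411 sh2, 0 to 1 in RS411 sh5, 0 to 3 in RS411 sh2 versus sh5, 0 to 11 in RCH sh2, 15 to 21 in SEM sh2, 11 to 17 in SEM sh5, 7 to 13 in SEM sh2 versus sh5, 6 to 24 for the line difference with sh2 and 1 to 4 with sh5, and 0 throughout in Reh and 697. In Reh this left an arm with 1 library, which was assumed to vary like the others. The other checks covered fold changes and line differences of single members, and the median fold change of the members. Of these checks, 1053 kept their call or moved by less than the spread. A call was lost in 108 and gained in 24, and 11 moved, all of them medians. Members under 1 CPM rest on few reads, and a difference in them was often not detectable at this depth.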
